A study of Mus musculus with 3 samples.

Results

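Megalin (Lrp2) and 7 related genes of receptor-mediated endocytosis were followed through 3 kinds of cultured mouse heart cell. The 8 genes were chosen by name, 6 receptors (Lrp2, Lrp1, Lrp4, Lrp8, Vldlr and Sorl1), 1 adaptor (Dab2) and 1 chaperone (Lrpap1), and all 8 were found among the 18245 genes of the deposited table. Messenger RNA of cardiosphere-derived cells (CDC), of an epithelial clone derived from them (CDC-EpiC) and of primary epicardial cells (pEpiC) had been sequenced, with 3 libraries per kind. Each library held 22008833 to 22756045 expected counts, which are estimated reads per gene. CDC grew out of explants of the ventricular epicardium, the outer layer of the heart, of C57BL/6 mice aged 6 weeks, passed through floating spheres and were used at passage 3. CDC-EpiC were a single clone, picked in a cloning cylinder from CDC after 2 weeks with SB-431542 at 10 µM, a compound that blocks TGF-beta receptor signalling at the type I kinase. pEpiC came from enzyme digestion of the dissected heart of C57BL/6 mice aged 6 to 8 weeks and were also used at passage 3. The study describes them as isolated from the epicardium. The labels give no genetic modification for any kind. CDC and pEpiC grew in different media, so medium, isolation and kind cannot be told apart. CDC-EpiC differed from CDC by the 2 weeks with SB-431542 and by the picking of a clone. Treatment, time in culture and choice of clone thus cannot be told apart either. GEO lists a single sample for each kind, and the extraction protocol speaks of separate samples. The methods of the study name fewer biological replicates than there are libraries, while its legend for the sequencing of CDC and pEpiC gives n = 3. Whether the 3 libraries of a kind were separate animals or cultures is thus not known, so n counts libraries and p-values measure only the spread between these libraries, which may be technical, and the libraries of the clone hold no difference between clones.

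The LDL receptor family comprises single-pass membrane proteins that bind lipoproteins, proteases with their inhibitors, and signalling proteins outside the cell. Most carry short peptide signals in the cytoplasmic tail that recruit adaptors such as Dab2, which link the receptor to clathrin and to internalization. Megalin is known for protein uptake in the kidney and other absorptive epithelia, and the epicardium is itself an epithelial sheet, a mesothelium. Lrpap1, also called RAP, binds newly made members of the family in the endoplasmic reticulum and keeps ligands off them.

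The tail signal that most of these receptors share is the peptide NPxY, in which x is any residue. It is shown here as the coding sequence, because it is the feature by which the receptors meet the adaptor Dab2 measured below. Capitals mark the 4 codons of the peptide, flanked by 9 bases before and 6 after, read 5′ to 3′ on the coding strand from the GRCm38 genome through GENCODE transcripts. Lrp2 held a pair of matches in the 3′ end of its coding sequence, on the minus strand at chr2:69430299-69430325 (exon 76) and chr2:69425971-69425997 (exon 78), 137 and 58 residues from the end of the protein. Lrp1 also held a pair, on the minus strand at chr10:127539302-127539328 (exon 88) and chr10:127539058-127539084 (exon 89). Lrp4 (chr2:91508512-91508538, exon 37), Lrp8 (chr4:107869052-107869078, exon 17) and Vldlr (chr19:27247931-27247957, exon 18) held 1 each on the plus strand, and the searched end of Sorl1 held 0.
Lrp2, first match: atatttgaaAACCCAATGTATgcagcc
Lrp2, last match: aacttcgaaAATCCAATCTATgcagag
Lrp1, first match: gaaattggaAACCCTACCTACaagatg
Lrp1, last match: aacttcaccAACCCAGTGTATgccacg
Lrp4: acctatagcAACCCCTCCTACcgaact
Lrp8: aatttcgacAACCCAGTGTACaggaaa
Vldlr: aactttgacAATCCTGTGTACttgaag
The third of the 4 codons was GTG in the last Lrp1 match, in Lrp8 and in Vldlr, and differed in the others.

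Several of these genes have very long messages. The length implied by the table, from the counts and the length-scaled values, was 15697 bases for Lrp2 and 15111 for Lrp1. It was 8663 bases for Sorl1, 7511 for Lrp4, 7412 for Lrp8, 6644 for Vldlr, 4548 for Dab2 and 2924 for Lrpap1. Length matters here because the pEpiC libraries held relatively more counts from long genes. In pEpiC against CDC the median log2 change over all genes tested was 0.02, but it was −0.52 for the 3910 genes under 2000 bases and 0.67 for the 228 genes of 10000 bases or more, of which 71.5% were higher past the threshold. For CDC-EpiC against CDC the same 2 medians were −0.02 and −0.16, and for CDC-EpiC against pEpiC they were 0.51 and −0.83. Fitted changes of named genes that involve pEpiC are therefore also given from a fit with a length offset, in which the trend of each library against length was removed. Levels and shares carry no such offset.

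**Figure D1:**
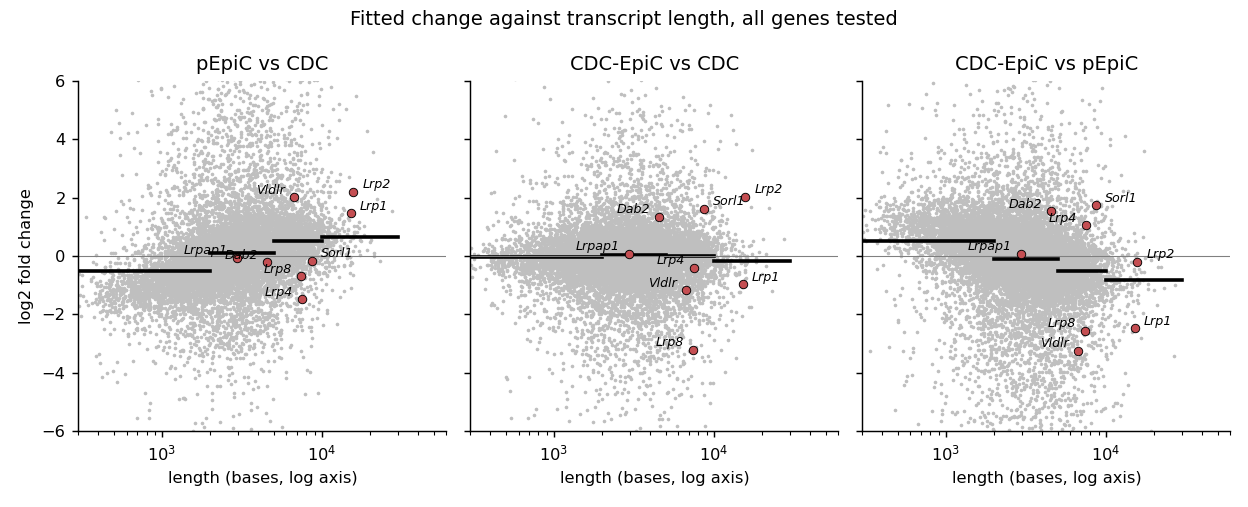
Fitted log2 fold change (vertical axis) against the length implied by the table (horizontal axis, log scale) for all genes tested in each comparison, in grey, with the 8 genes in red and the median of 4 length classes as black lines. The medians rise with length in pEpiC against CDC, from −0.52 to 0.67, and fall in CDC-EpiC against pEpiC, from 0.51 to −0.83, and a few genes lie beyond the axis limits.

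As a check of the labels, 8 mesothelial marker genes summed to 5709 to 6660 CPM in the CDC-EpiC libraries, to 574 to 608 in CDC and to 381 to 435 in pEpiC, where CPM are counts scaled to library size after TMM normalization. The kind labelled primary epicardial was thus the lowest of the 3 for this sum, although Lrrn4 (200 against 102 CPM), Wt1 (51.1 against 10), Krt8 (2.76 against 0.274) and Krt18 (2.03 against 0.152) averaged higher in pEpiC than in CDC. It was also the highest for the sum of 5 fibroblast markers, at 22118 to 24435 CPM against 8308 to 10824 in CDC and 6240 to 7694 in CDC-EpiC. Krt8 and Krt18 were below 3 CPM on average in every kind, and Wt1 averaged 119 CPM in CDC-EpiC. The 4 smooth muscle markers summed to 1999 to 2507 CPM in CDC, 322 to 462 in CDC-EpiC and 872 to 885 in pEpiC. Acta2 (1956 against 547 CPM) and Cnn1 (15.1 against 4.45) averaged higher in CDC than in pEpiC. Tagln (261 against 321) and Myh11 (3.79 against 4.75) averaged lower. The 10 macrophage markers were 293 to 812 CPM in pEpiC, where pEpiC library 1 was the highest, 58 to 61 in CDC and 22.6 to 25.3 in CDC-EpiC. The 8 endothelial markers summed to 1.04 to 2.22 CPM in CDC, 1.63 to 1.86 in CDC-EpiC and 21.9 to 23 in pEpiC, where Tek alone averaged 17.6 CPM and Pecam1 and Cdh5 0.349 and 0.437. The 7 cardiomyocyte markers summed to 9.6 to 25.2, 9.79 to 12.5 and 138 to 154 CPM in the same order, and Tnnt2 alone averaged 145 CPM in pEpiC. In bulk RNA, a change in the number of cells of a type and a change in RNA per cell cannot be told apart.

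Lrp1, which takes up remnant lipoproteins and protease-inhibitor complexes in many mesenchymal cells, was by far the most abundant of the 6 receptors in every kind. Only values scaled to length compare different genes, and in TPM, which are scaled to length and to the same sum in each library, Lrp1 averaged 146 ± 26.6 in CDC, 78.8 ± 7.4 in CDC-EpiC and 572 ± 36.5 in pEpiC (SD, n = 3 throughout). In CDC the order below it was Dab2 (72.7 TPM), Lrpap1 (54.8), Vldlr (9.13), Lrp8 (5.57), Lrp4 (3.05), Sorl1 (2.83) and Lrp2 (0.537), and the libraries overlapped only between the neighbours Lrp4 and Sorl1. In CDC-EpiC Dab2 stood first at 196 TPM, then Lrp1, Lrpap1 (60.7), Sorl1 (8.66), Vldlr (4.28), Lrp4 (2.39), Lrp2 (2.33) and Lrp8 (0.647), with overlap only between Lrp4 and Lrp2. In pEpiC Lrp1 was followed by Dab2 (88.2), Lrpap1 (74.5), Vldlr (49.7), Lrp8 (4.94), Lrp2 (3.49), Sorl1 (3.42) and Lrp4 (1.63), and the libraries overlapped between Dab2 and Lrpap1 and between Lrp2 and Sorl1. Lrp2 was thus last in CDC, and Lrp8 was last in the clone. TPM also shift between kinds as a whole, because the factor between the deposited FPKM and TPM was 1.74 to 1.9 in CDC, 1.81 to 1.89 in CDC-EpiC and 2.33 to 2.4 in pEpiC, so kinds are compared in CPM below.

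**Figure D2:**
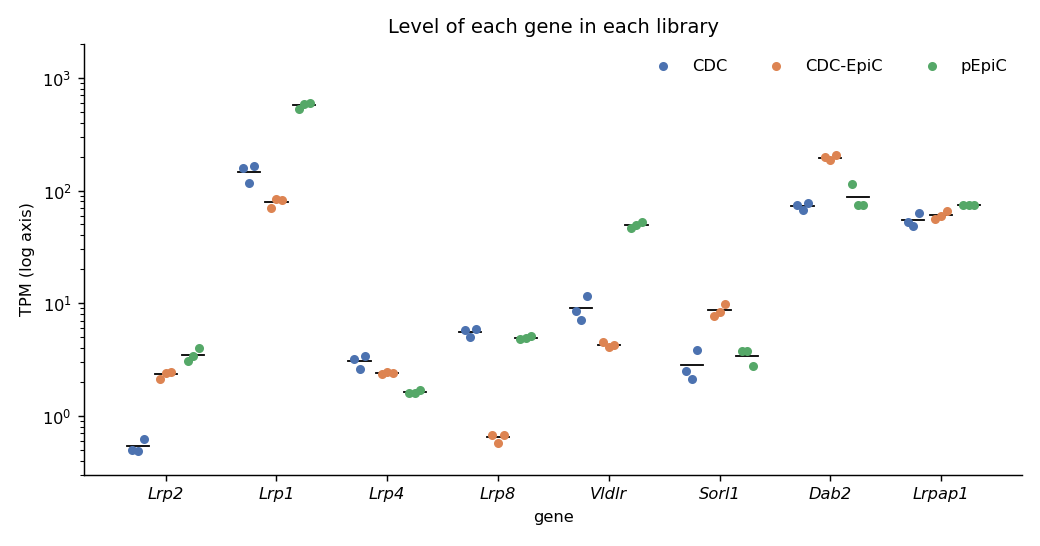
TPM of each of the 8 genes (log axis) in each of the 9 libraries, with a point per library and a black line at the mean of each kind. Lrp1 lies between 530 and 596 TPM in pEpiC against 70.3 to 83.6 in CDC-EpiC, Lrp2 is lowest in CDC at 0.49 to 0.62, and Lrp8 is lowest in CDC-EpiC at 0.58 to 0.68.

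All 3 comparisons were fitted in edgeR over all genes, with Benjamini-Hochberg adjusted p under 0.05 as the threshold, and all 8 genes passed the filter on low counts in each. The comparisons share libraries and are not independent of each other. In pEpiC against CDC, 5 of the 8 genes passed, Lrp2, Lrp1 and Vldlr higher and Lrp4 and Lrp8 lower in pEpiC, where 78.3% of all 13526 genes tested passed (39.8% higher and 38.5% lower). The same 5 had libraries of the 2 kinds that did not overlap, as did 81.5% of all genes. In CDC-EpiC against CDC, 7 of 8 passed, Lrp2, Sorl1 and Dab2 higher and Lrp1, Lrp4, Lrp8 and Vldlr lower in the clone, where 68.8% of 12976 genes passed (34.2% higher and 34.6% lower). All 7 had libraries that did not overlap, as did 72.1% of all genes. In CDC-EpiC against pEpiC, 6 of 8 passed, Lrp4, Sorl1 and Dab2 higher and Lrp1, Lrp8 and Vldlr lower in the clone, where 81.9% of 13547 genes passed (40.3% higher and 41.5% lower). The same 6 had libraries that did not overlap, as did 84% of all genes. With most genes passing in each comparison, these counts set nothing apart about the 8 genes, and the sizes and directions of the single changes carry the description.

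**Figure D3:**
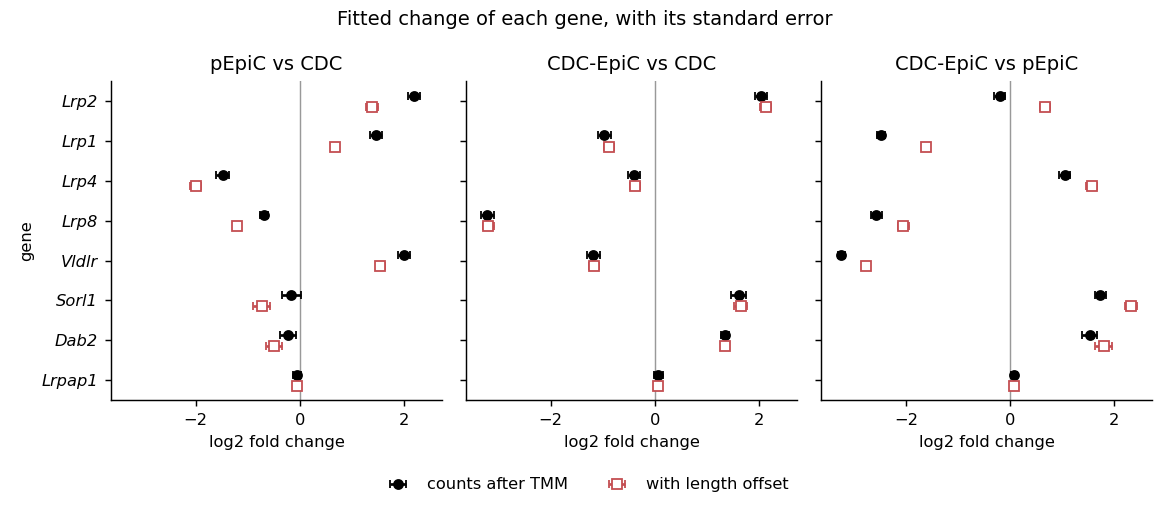
Fitted log2 fold change of each gene in the 3 comparisons, with bars of 1 standard error, from counts after TMM normalization (black) and from the fit with a length offset (red). In CDC-EpiC against CDC the paired symbols nearly coincide, and in CDC-EpiC against pEpiC the Lrp2 symbols stand on opposite sides of 0, at −0.20 and 0.67.

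Megalin was low in CDC and several times higher in both other kinds. Lrp2 (NCBI gene 14725, chr2:69424340-69586065 on the minus strand of GRCm38, 79 coding exons) read 4.57, 4.45 and 5.25 CPM in the CDC libraries, 18, 20.8 and 20.3 in CDC-EpiC and 20, 21.7 and 26.1 in pEpiC. The lowest library of either other kind was above every CDC library, while CDC-EpiC and pEpiC overlapped. The counts behind these levels were 98 to 116 per CDC library, 406 to 459 in CDC-EpiC and 461 to 596 in pEpiC. Lrp2 was 4.12-fold higher in CDC-EpiC than in CDC (log2 2.04, SE 0.11, adjusted p 3.3e-10 in edgeR) and 4.6-fold higher in pEpiC (log2 2.20, SE 0.12, adjusted p 1.1e-07). With the length offset the first became 4.37-fold and the second 2.62-fold (log2 1.39, SE 0.11, adjusted p 1.2e-06).

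Between CDC-EpiC and pEpiC the sign of the Lrp2 difference depended on how length was handled. Its log2 change was −0.20 (95% interval −0.43 to 0.03, adjusted p 0.0981 in edgeR), and with the length offset it was 0.67 (SE 0.10, adjusted p 1.2e-04), higher in the clone. In edgeR it passed as lower in the clone without pEpiC library 1 (log2 −0.28, adjusted p 0.021). It also did so with at least 10 counts required in every library (log2 −0.25, adjusted p 0.0439) and with a replicate block (log2 −0.20, adjusted p 0.0448). The medians of all genes on log2(TPM + 1) and log2(TPM + 0.1) were themselves −0.33 and −0.38. On those scales Lrp2 passed as lower in limma (log2 −0.43 and −0.56, adjusted p 0.00377 and 0.00531). Over all its alternatives the adjusted p lay between 1.2e-04 and 1.

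The genes whose pattern over the 9 libraries was most like that of Lrp2, by the root mean square difference of centred log2(CPM + 0.5) over 12499 genes with a mean of at least 1 CPM, were Adamts12 (0.135), Syne2 (0.159), P2rx3 (0.162), Gm11100 (0.166) and Zbtb8b (0.168). Adamts12, a secreted metalloprotease, averaged 22.4 CPM in CDC, 82.6 in CDC-EpiC and 87.3 in pEpiC, and Syne2, a nuclear envelope protein with a message of 22070 bases, averaged 48.7, 154 and 196. The other 7 genes described here had distances of 0.955 (Lrpap1) to 2.02 (Lrp8). The implied lengths of the 5 most alike genes ran from 555 to 22070 bases.

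Lrp1 moved in opposite directions in the clone and in the primary cells. Lrp1 (NCBI gene 16971, chr10:127538161-127621148 on the minus strand, 89 coding exons) read 1387, 1018 and 1344 CPM in CDC, 574, 698 and 655 in CDC-EpiC and 3353, 3621 and 3734 in pEpiC, and no 2 kinds overlapped. It was 1.95-fold lower in CDC-EpiC than in CDC (log2 −0.97, SE 0.12, adjusted p 2.5e-06 in edgeR) and 2.77-fold higher in pEpiC than in CDC (log2 1.47, SE 0.11, adjusted p 7.7e-07). With the length offset the rise in pEpiC was 1.6-fold (log2 0.68, SE 0.07, adjusted p 9.6e-06). Between CDC-EpiC and pEpiC the fall was 5.57-fold, and 3.08-fold with the length offset (log2 −2.48 and −1.62, adjusted p 2.5e-09 and 4.3e-08). The summed fibroblast markers were also highest in pEpiC and lowest in the clone, but the single markers differed. Col1a1, Col1a2 and Lum averaged lower in the clone than in CDC. Dcn (1839 against 462 CPM) and Pdgfra (61 against 29) averaged higher in the clone than in CDC, and Dcn averaged 1704 in pEpiC. The part of these markers in the Lrp1 level was not tested.

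Vldlr, which binds triglyceride-rich lipoproteins and reelin, showed the same order as Lrp1. Vldlr (NCBI gene 22359, chr19:27216484-27254231 on the plus strand, 19 coding exons) read 31.6, 27.6 and 40.4 CPM in CDC, 14.1, 15.3 and 14.7 in CDC-EpiC and 130, 140 and 145 in pEpiC. Each kind kept apart from both others. It was 2.27-fold lower in CDC-EpiC than in CDC (log2 −1.18, SE 0.12, adjusted p 4.0e-07 in edgeR), 4.04-fold higher in pEpiC than in CDC (log2 2.01, SE 0.11, adjusted p 1.3e-07) and 9.43-fold lower in the clone than in pEpiC (log2 −3.24, SE 0.06, adjusted p 7.6e-11). With the length offset the last 2 became 2.93-fold and 6.84-fold.

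Lrp8, the reelin and apolipoprotein E receptor also called ApoER2, was much lower in the clone. Lrp8 (NCBI gene 16975, chr4:107802261-107876840 on the plus strand, 19 coding exons) read 24.4, 21.7 and 24.2 CPM in CDC, 2.65, 2.27 and 2.66 in CDC-EpiC and 14.8, 14.6 and 15.6 in pEpiC. The clone held 50.2 to 60.2 expected counts per library, against 478 to 535 in CDC, so its level was above the counting floor of 3. The fall from CDC to CDC-EpiC was 9.29-fold (log2 −3.22, SE 0.12, adjusted p 2.7e-12 in edgeR), the largest change of the 8 genes in that comparison. Against pEpiC the clone was 5.93-fold lower, or 4.15-fold with the length offset. Lrp8 was 1.61-fold lower in pEpiC than in CDC (log2 −0.69, SE 0.08, adjusted p 1.4e-05) and 2.31-fold lower with the length offset, but this call was lost in limma on log2(TPM + 1) (log2 −0.14, adjusted p 0.174), where the median of all genes was 0.41, and in the test against a 1.5-fold change (adjusted p 0.0739). Its adjusted p lay between 8.6e-09 and 0.198 over all alternatives.

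Lrp4, the agrin receptor of the neuromuscular junction and a regulator of WNT signalling, was highest in CDC and lowest in pEpiC. Lrp4 (NCBI gene 228357, chr2:91457511-91513779 on the plus strand, 38 coding exons) read 13.6, 11.2 and 14.1 CPM in CDC, 9.82, 10.4 and 9.4 in CDC-EpiC and 4.99, 4.66 and 4.69 in pEpiC, with no overlap between kinds. It was 2.8-fold lower in pEpiC than in CDC (log2 −1.48, SE 0.12, adjusted p 1.2e-06 in edgeR) and 4-fold lower with the length offset. The clone was 2.06-fold above pEpiC (log2 1.05, SE 0.11, adjusted p 7.5e-06), and 2.96-fold with the offset. The difference between CDC-EpiC and CDC was small (log2 −0.40, SE 0.11, adjusted p 0.00533), and it did not pass in limma on log2(TPM + 0.1) (adjusted p 0.0661) or in the test against a 1.5-fold change (adjusted p 1). Its adjusted p lay between 0.00121 and 1 over all alternatives.

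Sorl1, a sorting receptor that joins an LDL receptor type ligand-binding region to a VPS10 domain and moves cargo such as APP between endosomes and the Golgi, was highest in the clone. Sorl1 (NCBI gene 20660, chr9:41964720-42124297 on the minus strand, 48 coding exons) read 11.7, 10.6 and 17.4 CPM in CDC, 36.9, 40 and 45.4 in CDC-EpiC and 13.3, 13.2 and 10.2 in pEpiC. Every CDC-EpiC library was above every other library, while CDC and pEpiC overlapped and CDC library 3 was the highest of those. The clone was 3.06-fold above CDC (log2 1.61, SE 0.14, adjusted p 8.8e-08 in edgeR) and 3.33-fold above pEpiC (log2 1.74, SE 0.11, adjusted p 2.4e-07), the latter 5.02-fold with the length offset (log2 2.33, SE 0.12). Its log2 change in pEpiC against CDC was −0.16 (95% interval −0.56 to 0.24, adjusted p 0.421), and −0.73 (adjusted p 0.00206) with the length offset. The sign turned without CDC library 3 (log2 0.07, adjusted p 0.625) and on log2(TPM + 1) (log2 0.22, adjusted p 0.238 in limma), where the median of all genes was 0.41, and the adjusted p of all alternatives lay between 0.00206 and 1. CDC library 3 also held 9.6 CPM of the cardiomyocyte markers against 24.7 and 25.2 in the other CDC libraries, whose part in the Sorl1 level was not tested. An exon of the gene model Gm16214 lies opposite Sorl1, and because the counting is not stated to use strand, reads from the 2 cannot be told apart.

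The adaptor Dab2, which binds NPxY tails and clathrin and also takes part in TGF-beta signalling, rose in the clone as well. Dab2 (NCBI gene 13132, chr15:6299788-6440712 on the plus strand, 13 coding exons) read 194, 177 and 191 CPM in CDC, 482, 465 and 489 in CDC-EpiC and 218, 137 and 141 in pEpiC. The clone stood above all other libraries, and pEpiC library 1 stood above every CDC library while the other 2 stood below them. Dab2 was 2.55-fold higher in CDC-EpiC than in CDC (log2 1.35, SE 0.08, adjusted p 6.1e-10 in edgeR) and 2.89-fold higher than in pEpiC (log2 1.53, SE 0.15, adjusted p 7.1e-06), the latter 3.49-fold with the length offset (log2 1.80, SE 0.16). An exon of Gm18888 lies on the opposite strand of Dab2, with the same limit on strand.

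In pEpiC against CDC the Dab2 result turned on a single library. Its log2 change was −0.22 (SE 0.15, adjusted p 0.204 in edgeR) with all libraries and −0.48 (adjusted p 2.1e-04) without pEpiC library 1, in which Dab2 was 1.57 times the mean of the other 2 pEpiC libraries. The same library held 812 CPM of the 10 macrophage markers against 320 and 293 in the others, 2.65 times their mean, with single markers at 2.46 to 3.08 times. All 10 markers, Ptprc and C1qa to C1qc among them, were above 3 counts in pEpiC, while 4 of 10 in CDC and 6 of 10 in CDC-EpiC were at 3 counts or fewer in every library. Of the other 7 genes, the ratio of pEpiC library 1 to the mean of the others was 0.836 for Lrp2 and up to 1.14 for Sorl1. The part of macrophages in the pEpiC level of Dab2 was not tested. With the length offset the log2 change was −0.49 (adjusted p 0.0172), on log2(TPM + 1) it was 0.25 (adjusted p 0.155 in limma), and the adjusted p of all alternatives lay between 2.1e-04 and 1. In the clone, where Dab2 was highest, the marker sum was 22.6 to 25.3 CPM against 58 to 61 in CDC, with Lyz2 lower (0.997 against 37.7 CPM) and Cd68 higher (13.3 against 1.96 CPM).

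**Figure D4:**
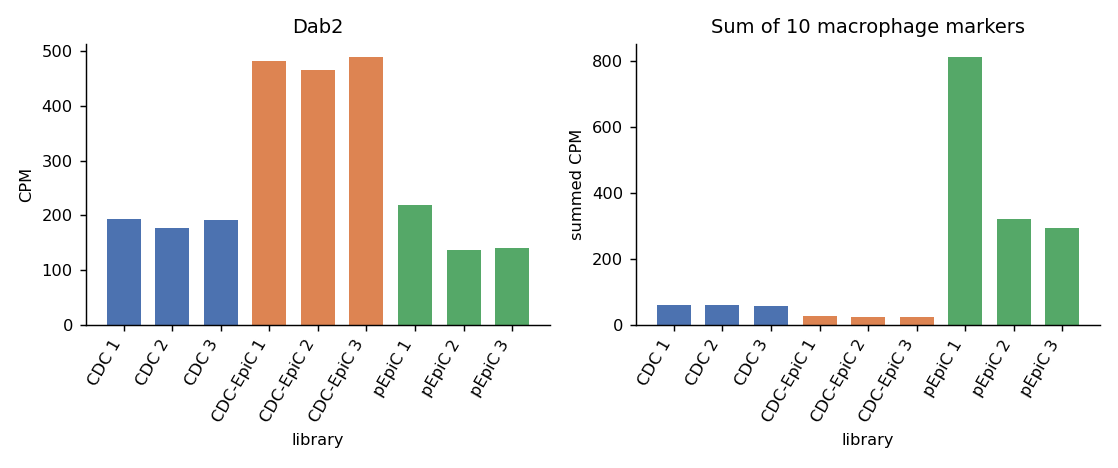
CPM of Dab2 (left) and summed CPM of 10 macrophage marker genes (right) in each library, with bars coloured by kind. pEpiC library 1 is the highest pEpiC library in both panels, at 218 CPM and 812 CPM, whereas the CDC-EpiC libraries are highest for Dab2 and lowest for the summed markers.

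The chaperone Lrpap1 had the smallest fitted log2 change of the 8 genes in each comparison. Lrpap1 (NCBI gene 16976, chr5:35091501-35105766 on the minus strand, 8 coding exons) read 88.9, 82.4 and 100 CPM in CDC, 88.5, 96.2 and 102 in CDC-EpiC and 91.7, 88.4 and 89.6 in pEpiC, and all 3 kinds overlapped. Its log2 change was −0.05 in pEpiC against CDC (95% interval −0.21 to 0.11, adjusted p 0.506 in edgeR), 0.07 in CDC-EpiC against CDC (−0.11 to 0.25, adjusted p 0.473) and 0.08 in CDC-EpiC against pEpiC (−0.04 to 0.21, adjusted p 0.186). With the length offset the first was −0.06 and the last 0.07. The change against pEpiC passed without CDC-EpiC library 1 (log2 0.14, adjusted p 0.0245) and turned sign on log2(TPM + 1) (log2 −0.30, adjusted p 0.00192 in limma), where the median of all genes was −0.33, and its alternatives gave adjusted p between 0.00176 and 1.

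The summed TPM of the 6 receptors was 167 ± 30.1 in CDC, 97.1 ± 8.19 in CDC-EpiC and 635 ± 39.3 in pEpiC, on the TPM scale that stood higher as a whole in pEpiC. Lrp1 made 87.4 ± 1.09% of the summed TPM of the 6 receptors in CDC, 81.1 ± 1.12% in CDC-EpiC and 90 ± 0.276% in pEpiC. The differences were 2.69 percentage points for pEpiC against CDC, −6.25 for CDC-EpiC against CDC and −8.94 for CDC-EpiC against pEpiC, without overlap of libraries, and each had p = 0.10 in a two-sided exact permutation test, the smallest that 3 libraries against 3 allow. Sorl1 took 8.91 ± 0.639% in the clone against 1.68 ± 0.325% in CDC and 0.542 ± 0.111% in pEpiC. With Sorl1 left out of the sum, the difference in the Lrp1 share between CDC-EpiC and CDC was 0.195 points, and that between CDC-EpiC and pEpiC was −1.5 points. Lrp2 took 2.4 ± 0.0317% in the clone, 0.325 ± 0.0452% in CDC and 0.548 ± 0.0501% in pEpiC, without overlap of libraries between kinds. Lrp8 fell from 3.37 ± 0.345% in CDC to 0.671 ± 0.102% in the clone and 0.779 ± 0.0382% in pEpiC, and Vldlr was 5.44 ± 0.7%, 4.44 ± 0.597% and 7.83 ± 0.231% in CDC, CDC-EpiC and pEpiC. Lrp4 was 1.84 ± 0.0986%, 2.47 ± 0.169% and 0.256 ± 0.0122% in the same order.

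**Figure D5:**
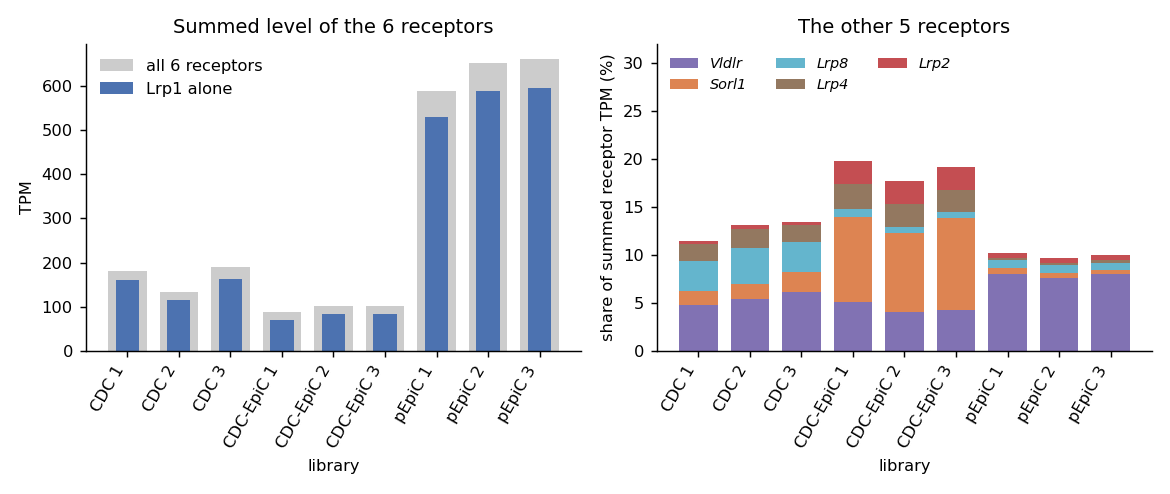
Left, summed TPM of the 6 receptors (grey) and of Lrp1 alone (blue) in each library. Right, the share of that sum, in percent, held by each of the other 5 receptors, stacked, where Sorl1 takes 8.3 to 9.58% in the CDC-EpiC libraries and 0.418 to 2.03% elsewhere.

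Lrp2, Sorl1 and Dab2 were the genes that were higher in the clone than in CDC, and the bases before their RefSeq starts are shown because these genes shared that direction. In pEpiC against CDC only Lrp2 of the 3 was higher. Capitals mark matches, on either strand, to the GC box GGGCGG (or CCGCCC), and to CAGAC (or GTCTG), the box that SMAD proteins of the TGF-beta pathway are known to bind, which overlap by shared letters in 1 place of the Lrp2 window. Of all 32851 promoters in the RefSeq table, 32.7% held the GC box and 42.2% the SMAD box in the 250 bases before the start. Lrp2 held 2 of each, Sorl1 a single GC box and no SMAD box, and Dab2 no GC box and 1 SMAD box, at the outermost start of each gene. The RefSeq table held 7 of the 8 genes, all but Lrp4, and bases inside the GENCODE extent of a gene are not shown. Sequences are from RefSeq on GRCm38.p6, 5′ to 3′ on the strand of the gene, at chr2:69586066-69586279 (minus) for Lrp2, chr9:42124298-42124547 (minus) for Sorl1 and chr15:6299539-6299787 (plus) for Dab2.
Lrp2: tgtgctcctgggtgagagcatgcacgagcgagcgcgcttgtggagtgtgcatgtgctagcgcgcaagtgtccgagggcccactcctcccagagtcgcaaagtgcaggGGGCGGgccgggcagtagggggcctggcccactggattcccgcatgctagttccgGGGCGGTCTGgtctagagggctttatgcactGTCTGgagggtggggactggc
Sorl1: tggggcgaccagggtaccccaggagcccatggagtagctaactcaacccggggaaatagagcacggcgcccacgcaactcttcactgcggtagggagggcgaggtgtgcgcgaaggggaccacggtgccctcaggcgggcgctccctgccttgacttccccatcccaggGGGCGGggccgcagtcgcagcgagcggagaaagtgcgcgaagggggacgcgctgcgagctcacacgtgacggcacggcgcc
Dab2: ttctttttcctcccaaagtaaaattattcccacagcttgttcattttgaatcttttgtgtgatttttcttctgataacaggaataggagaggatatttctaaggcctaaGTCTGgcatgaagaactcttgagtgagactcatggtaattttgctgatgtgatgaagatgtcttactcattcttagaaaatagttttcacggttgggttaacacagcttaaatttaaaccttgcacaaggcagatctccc
Neither box was in all 3 windows, and both are common in promoters of this length. Among the genes that were lower in the clone, Lrp1 held 1 GC box and no SMAD box, and the outermost starts of Lrp8 and Vldlr held no GC box and 1 SMAD box each. Choice of start mattered. The inner starts of Sorl1 and Dab2 held no GC box and 1 SMAD box each. That of Vldlr held 1 GC box and no SMAD box, and those of Lrp8 held no GC box and 0 or 1 SMAD box.

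The rest of the LDL receptor family held genes that changed in both directions in each comparison. Of 12 listed genes, 10 passed the filter on low counts, and Lrp1b and Ldlrad1 did not. In pEpiC against CDC 6 were higher, 2 lower and 2 did not pass, where 39.8% of all genes were higher and 38.5% lower (median log2 0.57, against 0.02 over all genes tested), and with the length offset 4 were higher and 2 lower. Lrp6, a WNT co-receptor with a message of 9452 bases, had the largest rise before the offset (log2 1.33, SE 0.08, adjusted p 2.2e-07 in edgeR), but with it stood at 0.72, below Ldlrad4 (1.15 without and 0.90 with the offset) and Ldlrad3 (1.01 and 0.84). Lrp11 fell most (log2 −0.54, SE 0.10, adjusted p 5.0e-04, and −0.64 with the offset). Against CDC the clone had 3 higher and 5 lower, where 34.2% and 34.6% of all genes were (median −0.13, against 0.00). Ldlrad4, an inhibitor of TGF-beta signalling, averaged 26.5 ± 2.47 CPM in CDC and 2.86 ± 0.329 in the clone (a fall of log2 −3.22, SE 0.12, adjusted p 4.1e-12), and Ldlrad3 rose most (log2 0.61, SE 0.09, adjusted p 3.8e-05). Against pEpiC the clone had 1 higher and 7 lower, where 40.3% and 41.5% of all genes were (median −0.54, against −0.02). Ldlrad4 was the lowest (log2 −4.41, SE 0.08, and −4.16 with the offset) and Lrp10 the only rise before the offset (log2 0.27, SE 0.06, adjusted p 0.00272, and 0.26 with it), and with the length offset 2 were higher and 7 lower.

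The VPS10 sorting receptors are relatives of Sorl1. Of 4 listed, Sorcs3 did not pass the filter, and the other 3 were higher in the clone than in CDC, where 34.2% of all genes were (median log2 2.81, against 0.00 over all genes tested). Sort1, or sortilin, which carries hydrolases to lysosomes, read 21.2 ± 3.75 CPM in CDC, 149 ± 4.88 in CDC-EpiC and 46.1 ± 1.28 in pEpiC (log2 2.81, SE 0.11, adjusted p 4.2e-12 in edgeR for CDC-EpiC against CDC). Sorcs1 held 785 to 888 counts per library in the clone, 186 to 254 in CDC and 11 to 14 in pEpiC, so that it was higher in the clone and lower in pEpiC than in CDC (log2 1.96 and −4.19, SE 0.11 and 0.20, the latter −4.60 with the length offset). Sorcs2 was higher than in CDC in both other kinds (log2 2.87 in the clone, and 4.14 in pEpiC or 3.74 with the offset, from 1.29 ± 0.278 CPM in CDC). Against pEpiC the clone was higher in 2 and lower in 1, where 81.9% of all genes passed (median 1.69, against −0.02). The comparison of pEpiC with CDC gave 2 higher and 1 lower, where 78.3% passed (median 1.08, against 0.02).

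Of 13 partners, adaptors and regulators of these receptors, 11 were tested, and Amn and Dab1 did not pass the filter. Cubn, or cubilin, the co-receptor of megalin in the kidney and gut, had 23 to 67 counts per library, against 98 to 596 for Lrp2. It was lower in the clone than in CDC (log2 −1.07, SE 0.24, adjusted p 0.00113 in edgeR), the opposite direction to Lrp2, and its log2 change in pEpiC against CDC was −0.36 (adjusted p 0.222), or −1.05 (adjusted p 0.00245) with the length offset. Amn, which anchors cubilin at the membrane, had 5 counts or fewer in every library. Between CDC-EpiC and CDC 6 of the list were higher, 4 lower and 1 did not pass, where 68.8% of all genes passed (median 0.43, against 0.00). Numb, an endocytic adaptor, rose most among genes of at least 10 CPM (log2 0.83, SE 0.08, adjusted p 2.0e-07), and Pid1, which binds the tail of Lrp1, fell most (log2 −3.17, SE 0.17, adjusted p 2.0e-10). Mesd, a chaperone of the family, was lower as well (log2 −0.89, SE 0.07). In pEpiC 6 were higher and 3 lower than in CDC, where 78.3% of all genes passed (median 0.84, against 0.02). Mylip, which sends receptors of the family to lysosomes, was higher in pEpiC (log2 2.01, SE 0.10, and 1.99 with the offset), from 8.01 ± 0.985 CPM in CDC, and Gipc1, which binds the tail of megalin, fell most (log2 −1.11, SE 0.08, and −0.70 with the offset). From pEpiC to CDC-EpiC 3 were higher and 8 lower, where 81.9% of all genes passed (median −0.83, against −0.02), or 3 and 6 with the length offset. Pid1 stood lowest (log2 −4.73, SE 0.14, and −4.81 with the offset).

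Ligands of the receptors were measured in the same libraries. Of 18 listed, 12 to 14 could be tested in a comparison, and Reln, Rbp4, Sost and Dkk1 in none. Reln, the gene of the reelin that Lrp8 and Vldlr bind, was at 3 counts or fewer in every library. Against CDC the clone had 3 higher, 5 lower and 4 that did not pass, where 68.8% of all genes passed (median −0.19, against 0.00). Clu, or clusterin, a protein that megalin binds, averaged 199 ± 36.3 CPM in CDC and 1408 ± 200 in the clone (a rise of log2 2.81, SE 0.13, adjusted p 6.4e-11 in edgeR). Thbs1, or thrombospondin-1, was lower, at 497 ± 134 CPM against 5248 ± 608 (log2 −3.41, SE 0.16, adjusted p 8.2e-11). It is a ligand of Lrp1, which was lower in the clone as well. In pEpiC the directions differed, with Thbs1 lower and Lrp1 higher than in CDC. In pEpiC 8 were higher and 4 lower than in CDC, where 78.3% of all genes passed (median 0.26, against 0.02). Mdk, or midkine, showed the largest rise, with 609 to 712 counts in each pEpiC library where CDC had 1 to 5, and it had 3 to 5 counts in the clone. Lpl, or lipoprotein lipase, which Vldlr and Lrp1 bind, averaged 61.5 ± 10.9 CPM in CDC and 661 ± 43.9 in pEpiC (a rise of log2 3.38, SE 0.12, adjusted p 5.6e-09, and 3.18 with the offset), and Thbs1 fell (log2 −1.31, SE 0.09, adjusted p 4.6e-07, and −1.72 with the offset). In the clone, where Lrp1 was lower than in CDC, Lpl was higher (log2 1.31, SE 0.11, adjusted p 4.3e-08 in edgeR). Apoe read 195 ± 27 CPM in CDC, 149 ± 21.2 in CDC-EpiC and 386 ± 72.8 in pEpiC, and App read 528 ± 72.4, 469 ± 40.3 and 1655 ± 39.7. Against pEpiC 2 were higher in the clone, Clu and Plat, and 11 lower, where 40.3% and 41.5% of all genes were (median −1.82, against −0.02), or 2 and 10 with the length offset.

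The general machinery of clathrin uptake and endosomal sorting changed in both directions in each comparison. All 20 listed genes were tested. Between CDC-EpiC and CDC 1 was higher, 9 lower and 10 did not pass, where 34.2% of all genes were higher and 34.6% lower (median log2 −0.18, against 0.00 over all genes tested), with Snx1, a sorting nexin, as the rise (log2 0.62, SE 0.07, adjusted p 1.5e-06 in edgeR) and Cltb, a clathrin light chain, as the largest fall (log2 −0.97, SE 0.08, adjusted p 3.4e-08). With the length offset 3 were higher and 10 lower. In pEpiC 8 were higher and 10 lower than in CDC, where 39.8% and 38.5% of all genes were (median −0.09, against 0.02). Eea1, an early endosome tether, had a log2 change of 0.80 (SE 0.06) and Cltb of −1.80 (SE 0.08), which were 0.25 and −1.23 with the offset. With that offset 9 of the list were higher and 7 lower. From pEpiC to CDC-EpiC 7 were higher and 11 lower, where 40.3% and 41.5% of all genes were (median −0.25, against −0.02). Ap2s1, a subunit of the AP-2 adaptor, stood at log2 1.28 (SE 0.05) and Eea1 at −1.72 (SE 0.06), which were 0.41 and −1.17 with the offset, and the offset gave 8 higher and 11 lower. Cltc, the clathrin heavy chain, read 616 ± 95.3 CPM in CDC, 469 ± 13.9 in CDC-EpiC and 863 ± 41.3 in pEpiC.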

How the data were processed

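Poly(A) RNA of CDC, CDC-EpiC and pEpiC was sequenced on a BGISEQ-500 (paired reads of 100 bases). The authors deposited expected counts, FPKM and TPM per gene and library, together with their own means, which were not used. The submitters' processing notes name HISAT2 2.0.4, Bowtie2 2.2.5, RSEM 1.2.12, DESeq2 1.4.5 and mm10, without roles. The annotation and use of strand are not given in the sources used here. Expected counts, of which 30.3% were not whole, were rounded and fitted in edgeR 4.0.16 (R 4.3.3), each pair of kinds alone, by the quasi-likelihood test after filterByExpr (minimum count 10, minimum total 15) and TMM, with Benjamini-Hochberg adjustment over all genes tested. The length offset removed a lowess trend (span 0.5) of each library against length, computed as the ratio of counts to FPKM. Scripts were tested on simulated counts. Alternatives used DESeq2 1.42.0, limma 3.58.1 on log2(TPM + 1), log2(TPM + 0.1) and log2(FPKM + 1), other scalings and filters, a 1.5-fold test, left-out libraries and a replicate block. Genes named from the lists were those with the largest rise and fall past the threshold at 10 CPM or more in the higher kind, and a few others chosen after their values were seen. Some listed genes are counted but not reported by name here. Members and lists were chosen with earlier results of these data known. Positions are from GENCODE on GRCm38. Intervals cover the spread between libraries only.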

Additional observations from a re-analysis of the deposited data

How the results depend on the processing

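Of 432 values of the 8 genes over the alternatives, 404 kept direction and side of the threshold, 5 lost a call, 10 gained one without a change of sign and 13 changed sign. Among those 13, Lrp2 with the length offset and Lrpap1 on both TPM scales, in comparisons with pEpiC, also gained a call. Lrp1 and Vldlr kept both in all 54 of their alternatives each. The number of genes past the threshold ranged from 4 to 7 in pEpiC against CDC (5 as reported, 6 without pEpiC replicate 1), from 6 to 7 in CDC-EpiC against CDC (7) and from 6 to 8 in CDC-EpiC against pEpiC (6, and 7 without pEpiC replicate 1).

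Signs changed as follows, as log2 changes. In pEpiC against CDC, Sorl1 was 0.22 with log2(TPM + 1), 0.30 with log2(TPM + 0.1) and 0.07 without CDC replicate 3. Dab2 was 0.25 on both TPM scales. Lrpap1 was 0.45 on both TPM scales (adjusted p 0.00133 and 0.00118 in limma), 0.07 with log2(FPKM + 1), 0.06 with library size alone and −0.12 to 0.02 without single libraries, the latter without CDC replicate 3. In CDC-EpiC against pEpiC, Lrp2 was 0.67 with the length offset and Lrpap1 was −0.30 on both TPM scales. The median of all genes moved to 0.41 and 0.50 on the TPM scales in pEpiC against CDC and to −0.33 and −0.38 in CDC-EpiC against pEpiC. Relative to it, Sorl1 in pEpiC against CDC stood at −0.19 and −0.20, Dab2 at −0.17 and −0.25, and Lrpap1 at 0.03 and −0.05.

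The Lrp1 share of receptor TPM in CDC-EpiC minus CDC was 0.195 points without Sorl1, and in CDC-EpiC minus pEpiC it was −1.5 points, where the removal of Sorl1 itself makes the difference. Leaving out single libraries gave 2.28 to 3.3, −6.88 to −5.64 and −9.56 to −8.47 points for the 3 comparisons.

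The libraries share only a number: same-numbered libraries had deviation correlations of −0.119 to 0.0821. A replicate block added Dab2 in pEpiC against CDC (log2 −0.26, adjusted p 0.0243 in edgeR) and Lrp2 in CDC-EpiC against pEpiC (log2 −0.20, adjusted p 0.0448), and changed no other call of the 8 genes. Counts were too low to test 9 listed genes, Amn and Reln among them, in any comparison.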
